A study of Mus musculus with 95 samples.

Results

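A set of 10 genes that the tumour suppressor p53 is known to switch on was followed across 95 RNA-Seq libraries of nerve and kidney from diabetic and non-diabetic mice: Phlda3, Cdkn1a, Mdm2, Ccng1, Bax, Gdf15, Trp53inp1, Sesn2, Eda2r and Pmaip1. They were chosen by symbol with earlier results of these data known, and all 10 were found among the 25407 gene symbols of every library. Their counts beside the share of all genes are therefore a description and not a test of the set. The libraries came from male mice, from isolated kidney glomeruli (Glom), kidney cortex, dorsal root ganglia (DRG) and sciatic nerve (SCN), at an age of 16 weeks. Both genotypes were of the strain BKS.Cg-m +/+ Leprdb/J. The db/db mice, titled dbdb in the labels, are homozygous for the Leprdb mutation of the leptin receptor gene and become obese and diabetic. The db/+ mice, titled Cont, carry a single copy of the same mutation. Pioglitazone (PIO), an agonist of the nuclear receptor PPARG, was given in the chow at 15 mg/kg for 11 weeks to the groups titled dbdb-Pio and Cont-Pio. The 4 groups of each tissue, db/db PIO, db/db, db/+ PIO and db/+, held 6 libraries each, except for 5 in DRG db/db. The design asks how diabetes and pioglitazone change each tissue, by comparing db/db with db/+, db/db PIO with db/db, db/+ PIO with db/+, and db/db PIO with db/+ PIO.

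p53 is a transcription factor that is held low by Mdm2 in unstressed cells and is stabilised after DNA damage and other stress. Its targets include genes that halt the cell cycle, genes that promote apoptosis, genes that dampen metabolism and growth signals, and feedback inhibitors of p53 itself. Several of them, Gdf15 and Sesn2 above all, are also switched on without p53, by ATF4 in the integrated stress response. Gdf15 encodes a secreted stress hormone that acts on the brain, Sesn2 an inhibitor of mTORC1 signalling, Phlda3 a protein that competes with AKT for membrane lipids, and Pmaip1 (Noxa) a BH3-only protein that neutralises the survival factor MCL1.

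Expression was given as FPKM, a count of sequenced fragments scaled to the length of the transcript and to the number of mapped reads. Per library, between 7333 and 10432 genes were listed above 0 and the FPKM summed to between 129009 and 601310, and read totals were not used here, so that the depth behind each value is unknown. Genes that every cell uses were often listed at 0, among them Gapdh in 34 and Actb in 74 of the 95 libraries, so that a 0 was taken as a missing value and not as absence of transcript. In DRG, 5 of 6 sensory neuron markers were listed at 0 in all 23 libraries, and Calca had a value in 1 (1401.57 FPKM). The marker check was therefore not informative for DRG. The proximal tubule transporter Slc34a1 was at 1524.60 to 1951.55 FPKM in the 5 cortical libraries with a value.

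Of the 950 entries of the 10 genes, 495 were values above 0 and 455 (47.89%) were listed at 0. Sesn2 had a value in 89 libraries, Pmaip1 in 86, Gdf15 in 85 and Phlda3 in 72. Cdkn1a and Eda2r had values in 41 each, Ccng1 in 35, Bax in 17, Trp53inp1 in 15 and Mdm2 in 14. The zeros were unevenly spread over tissues and groups. Cdkn1a and Bax were listed at 0 in all 24 SCN libraries, and Trp53inp1 in all 48 kidney libraries. In SCN, Phlda3 and Trp53inp1 had values in 3 of 6 db/+ and 3 of 6 db/+ PIO libraries but in none of the 12 db/db PIO and db/db libraries, and Mdm2 likewise had none in those 12. Where Phlda3 was given in SCN it was high, at 102.67, 123.93 and 121.06 FPKM in db/+ PIO nerves and 94.17, 131.31 and 139.10 FPKM in db/+ nerves. A comparison of diabetic with non-diabetic SCN could not be made for these genes. Over all genes, the median number listed above 0 was also lower in db/db PIO (8424.5) and db/db (8226) than in db/+ PIO (8839.5) and db/+ (9051) SCN libraries.

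**Figure D1:**
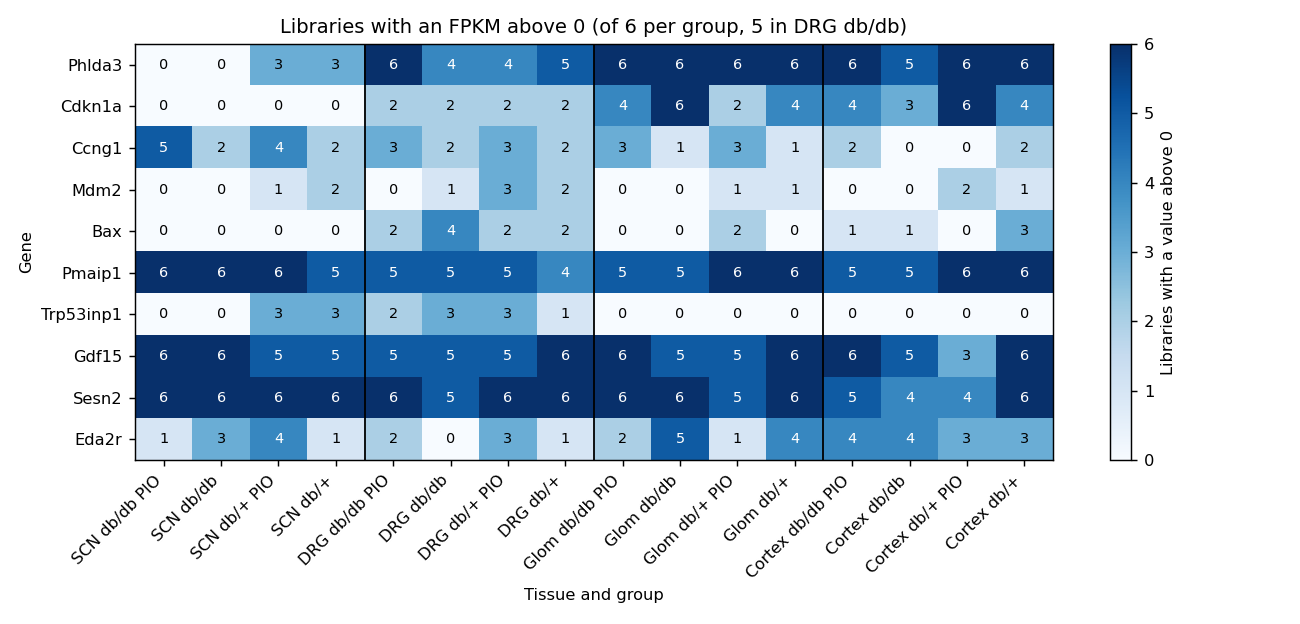
Number of libraries with an FPKM above 0 for each gene (down the page) in each tissue and group (across), from 0 in white to 6 in dark blue. Phlda3 and Trp53inp1 have no value in SCN db/db PIO and db/db, Cdkn1a and Bax none in SCN, and Trp53inp1 none in glomeruli or cortex.

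The promoters of Phlda3, Gdf15 and Sesn2, which rose in diabetic glomeruli, are shown with that of Cdkn1a, the classical p53 target, for the letters that p53 binds. RefSeq's promoter table (GRCm38.p6, 250 bases before to 50 after each start site) held 10 promoters for 8 of the 10 genes. Each was searched for the p53 half-site, which reads the same on both strands, and for the ATF4 element TGATGNAA on both strands. The sequences run 5′ to 3′ on the gene's strand, and capitals mark a p53 half-site.
Phlda3, chr1:135765835-135766134, plus strand: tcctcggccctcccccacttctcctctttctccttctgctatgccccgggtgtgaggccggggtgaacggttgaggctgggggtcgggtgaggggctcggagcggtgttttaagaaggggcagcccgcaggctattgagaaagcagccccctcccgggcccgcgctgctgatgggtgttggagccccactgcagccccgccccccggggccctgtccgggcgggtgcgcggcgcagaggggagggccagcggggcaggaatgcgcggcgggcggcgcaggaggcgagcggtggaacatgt
Gdf15, first of 2 start sites, chr8:70632407-70632706, minus strand: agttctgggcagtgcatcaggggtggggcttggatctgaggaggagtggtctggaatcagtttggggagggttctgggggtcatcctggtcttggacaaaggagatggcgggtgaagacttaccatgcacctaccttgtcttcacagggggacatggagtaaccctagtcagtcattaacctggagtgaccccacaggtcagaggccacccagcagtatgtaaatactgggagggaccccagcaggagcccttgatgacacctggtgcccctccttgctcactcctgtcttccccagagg
Sesn2, chr4:132510407-132510706, minus strand: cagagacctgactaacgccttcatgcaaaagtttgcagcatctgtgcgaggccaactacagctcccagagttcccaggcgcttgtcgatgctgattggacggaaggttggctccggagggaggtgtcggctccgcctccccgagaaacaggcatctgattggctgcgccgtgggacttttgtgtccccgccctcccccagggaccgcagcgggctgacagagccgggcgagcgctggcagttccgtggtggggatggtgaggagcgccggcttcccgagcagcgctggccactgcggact
Cdkn1a, first of 2 start sites, chr17:29090729-29091028, plus strand: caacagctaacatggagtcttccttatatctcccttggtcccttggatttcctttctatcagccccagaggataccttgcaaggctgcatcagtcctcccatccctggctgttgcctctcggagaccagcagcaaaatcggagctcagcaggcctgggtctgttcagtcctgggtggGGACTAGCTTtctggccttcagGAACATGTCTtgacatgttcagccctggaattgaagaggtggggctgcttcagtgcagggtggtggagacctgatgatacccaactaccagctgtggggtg
The window of the first Cdkn1a start site had 2 half-sites, the first beginning 73 bases before that site and the second 51. The window of its second start site had none. Mdm2, Ccng1 and Bax had 1 each. The windows of Phlda3, Gdf15, Sesn2 and Eda2r held none, and no window of any of the 8 genes held the ATF4 element. Of all 32851 promoters in the table, 8.36% held a half-site and 3.97% the ATF4 element. A match here is a stretch of letters and not a measured binding site. The last 8 letters of the Phlda3 window match the start of a half-site that the window's edge cuts. A window without a match says nothing about sites outside it.

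The levels of the genes differed between healthy tissues. In db/+ mice, Phlda3 was highest in SCN, followed by DRG (25.4 ± 2.85 FPKM, SD, n = 5), glomeruli (12.1 ± 3.12, n = 6) and cortex (1.83 ± 0.761, n = 6), and each step passed the test in a limma fit of all tissues. Sesn2 ran the other way, from 13.6 ± 3.09 FPKM in cortex and 3.46 ± 0.951 in glomeruli to 2.04 ± 0.521 in SCN and 1.93 ± 0.412 in DRG (n = 6 each). The SCN and DRG levels of Sesn2 were not told apart (log2 difference 0.05 ± 0.16 SE, limma adjusted p = 0.796). Gdf15 followed the same order, with 4.57 ± 1.77 FPKM in cortex, 2.21 ± 1.88 in glomeruli, 0.26 ± 0.116 in SCN (n = 5) and 0.153 ± 0.0528 in DRG, again with no difference shown between SCN and DRG (limma adjusted p = 0.669). Pmaip1 was at 6.57 ± 1.45 FPKM in cortex, 1.36 ± 0.116 in DRG (n = 4), 1.24 ± 1.37 in glomeruli and 0.174 ± 0.0598 in SCN (n = 5). Its DRG and glomerular levels were not told apart (limma adjusted p = 0.232). Cdkn1a, the inhibitor of cyclin-dependent kinases p21, was at 11.5 ± 2.7 FPKM in glomeruli and 8.31 ± 5.26 in cortex (n = 4 each), with no difference shown (limma adjusted p = 0.109). In DRG, Cdkn1a was listed at 38.17 and 41.88 FPKM in the 2 db/+ libraries with a value. Of 25 tests of these genes over the 6 pairs of tissues, 21 passed. The share of all tested genes that passed was 76.7% for SCN against DRG, 65% for SCN against glomeruli, 74.3% for SCN against cortex, 76.2% for DRG against glomeruli, 77.3% for DRG against cortex and 71.5% for glomeruli against cortex, so that differing between tissues was common to most genes.

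Sesn2, Phlda3 and Gdf15 rose in diabetic glomeruli. These were 3 of the 5 genes that could be tested there, all higher in db/db, where 25.4% of all tested genes passed. The median log2 difference over the 5 was 0.70, against 0.04 for all genes tested. Since the members were chosen with earlier results of these data known, this is a description and not a test of the set.

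Sesn2 had 6.62 FPKM in the lowest, 7.215 in the median and 8.13 in the highest db/db glomerular library, against 2.75, 3.155 and 5.34 in db/+. Every db/db library was above every db/+ library. The difference was 0.90 ± 0.119 (SE) on the log2(FPKM + 1) scale, a 1.87-fold change, with a limma adjusted p of 1.74e-05.

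Phlda3 ran from 13.81 through a median of 20.65 to 24.58 FPKM in db/db glomeruli, against 7.56, 12.56 and 15.74 in db/+. The groups overlapped, since db/db replicate 5 (13.81) lay below 3 of the db/+ libraries. The log2 difference was 0.70 ± 0.159, with a limma adjusted p of 0.002.

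Gdf15 was listed at 7.46, 4.6, 6.27, 9.57 and 4.55 FPKM in the 5 db/db glomerular libraries with a value, against 0.34 in the lowest, 1.975 in the median and 4.64 in the highest db/+ library. The db/+ libraries fell apart into 3 between 0.34 and 0.84 FPKM (replicates 1, 3 and 4) and 3 between 3.11 and 4.64 (replicates 2, 5 and 6), and replicate 2 lay above 2 of the db/db libraries. The log2 difference was 1.41 ± 0.391, with a limma adjusted p of 0.011.

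Pmaip1 and Cdkn1a did not pass in diabetic glomeruli. Pmaip1 was listed at 2.83, 1.75, 2.12, 2.04 and 1.83 FPKM in db/db, against 0.29, 0.775 and 3.88 (lowest, median and highest) in db/+. The highest db/+ library, replicate 2, lay above all 5 db/db values, and the log2 difference was 0.64 ± 0.252 (limma adjusted p = 0.068). Without that library it was 0.90, with a limma adjusted p of 6.18e-04. Cdkn1a had 11.29, 17.77 and 28.91 FPKM (lowest, median and highest) in db/db, against 15.39, 9.19, 10.40 and 11.06 FPKM in the 4 db/+ libraries with a value, a log2 difference of 0.63 ± 0.321 (limma adjusted p = 0.165).

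Sesn2, Gdf15 and Pmaip1 fell with pioglitazone in glomeruli of db/db mice. These were 3 of 5 tested genes, all lower in db/db PIO, where 23.1% of all tested genes passed. Sesn2 was at 2.14, 2.87 and 4.01 FPKM (lowest, median and highest) in db/db PIO glomeruli, against the 6.62 to 8.13 FPKM of db/db given above. The groups did not overlap, and Sesn2 fell by 1.04 on the log2 scale (SE 0.119, limma adjusted p = 1.02e-05).

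Gdf15 had 0.40, 2.085 and 3.66 FPKM (lowest, median and highest) in db/db PIO glomeruli, all below the 5 db/db values, and its log2 difference was -1.38 ± 0.391 (limma adjusted p = 0.015, and 0.052 with quantile normalization). Pmaip1 was listed at 1.08, 1.28, 0.38, 0.37 and 0.91 FPKM in db/db PIO, again all below the db/db values, with a log2 difference of -0.81 ± 0.264 and a limma adjusted p of 0.032. That call ended when db/db replicate 1, 3 or 4 or db/db PIO replicate 4 or 5 was left out, with limma adjusted p between 0.050 and 0.074. It also ended with quantile normalization (-0.52, limma adjusted p = 0.250). Phlda3 had 10.86, 14.57 and 19.60 FPKM (lowest, median and highest) in db/db PIO glomeruli and did not pass (log2 difference -0.43 ± 0.159, limma adjusted p = 0.056).

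Cdkn1a did not fall in value in treated glomeruli. It was listed at 28.43, 50.05, 13.11 and 16.81 FPKM in the 4 db/db PIO libraries with a value, against 11.29 to 28.91 FPKM in db/db, and its log2 difference of 0.38 ± 0.321 did not pass (limma adjusted p = 0.429).

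With pioglitazone in both genotypes, none of the 5 tested genes passed between db/db PIO and db/+ PIO glomeruli by limma, and none had an unadjusted p under 0.05, where 8.41% of all tested genes passed. The interaction of genotype and pioglitazone, which asks whether the drug acted differently in db/db than in db/+ glomeruli, passed for 1 of 4 tested genes, where 9.71% of all tested genes passed. This was Sesn2 (-1.09 ± 0.172, limma adjusted p = 6.42e-04). The interaction values of Phlda3 (-0.66 ± 0.225, limma adjusted p = 0.065) and Gdf15 (-1.38 ± 0.552, limma adjusted p = 0.119) did not pass. Leaving out db/+ replicate 2 raised the number of interaction calls over the 4 tissues to 5, against 3 with all libraries.

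**Figure D2:**
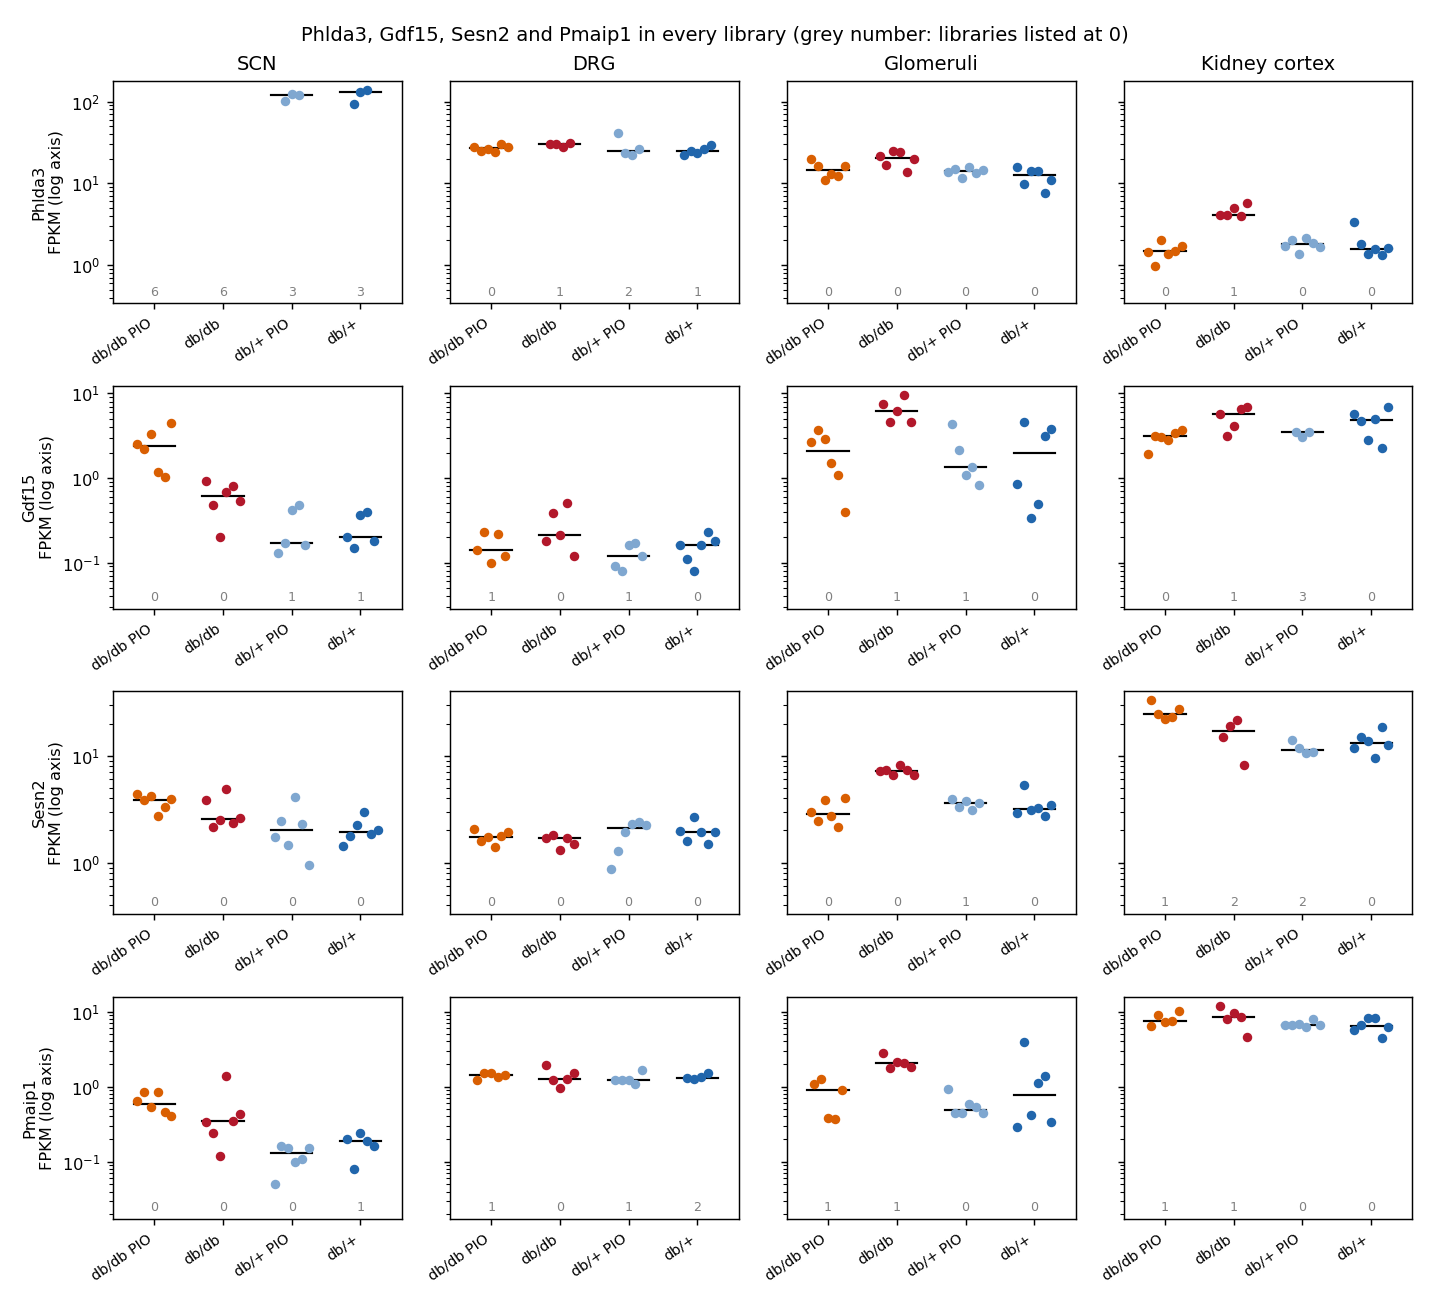
FPKM of Phlda3, Gdf15, Sesn2 and Pmaip1 (down the page, log axes) in each library of the 4 tissues (across), with the groups in the order db/db PIO, db/db, db/+ PIO and db/+. Points are libraries with a value, black lines are medians, and grey numbers count libraries listed at 0. In glomeruli the db/db points of Sesn2 (6.62 to 8.13) lie above all others, and in SCN the db/db PIO points of Gdf15 (1.03 to 4.43) do.

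Markers of tubule cells moved with these genes across the glomerular libraries. Of 11 markers of the distal nephron and collecting duct, 6 could be tested in glomeruli, and all 6 were higher in db/db than in db/+ and lower in db/db PIO than in db/db by limma. In these comparisons 25.4% and 23.1% of all tested genes passed. The summed FPKM of Krt18 and Atp6v0d2, the 2 of the 11 with a value in all 24 libraries, was 0.46 to 10.88 in db/db PIO, 29.8 to 51.9 in db/db, 1.45 to 17.39 in db/+ PIO and 0.72 to 17.37 in db/+. Among db/+ libraries this sum was 17.37, 11.17 and 5.59 in replicates 2, 5 and 6, which held the 3 higher Gdf15 values, and 0.78, 0.72 and 1.57 in replicates 1, 3 and 4. Replicate 2 also held the highest db/+ value of Sesn2 (5.34) and Pmaip1 (3.88), and its Slc22a6, a proximal tubule transporter, was at 21.49 FPKM where the other db/+ libraries ran from 0.48 to 1.86. Phlda3 ran differently, with its 3 lowest db/+ values in replicates 5, 2 and 6 (7.56, 9.77 and 11.03). In healthy mice the cortex, which is rich in tubules, held less Phlda3 than glomeruli but more Sesn2, Gdf15 and Pmaip1, as given above. C1qa, the only one of 8 macrophage markers with a value in every glomerular library, was at 0.56 to 4.36 FPKM in db/db PIO, 13 to 50.29 in db/db, 5.93 to 25.18 in db/+ PIO and 5.32 to 74.28 in db/+. The 74.28 was in db/+ replicate 2, and the other db/+ libraries ran from 5.32 to 14.61. The part of tubule or macrophage RNA in the glomerular results was not tested. In bulk tissue, fewer cells of a type and less RNA per cell cannot be told apart.

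**Figure D3:**
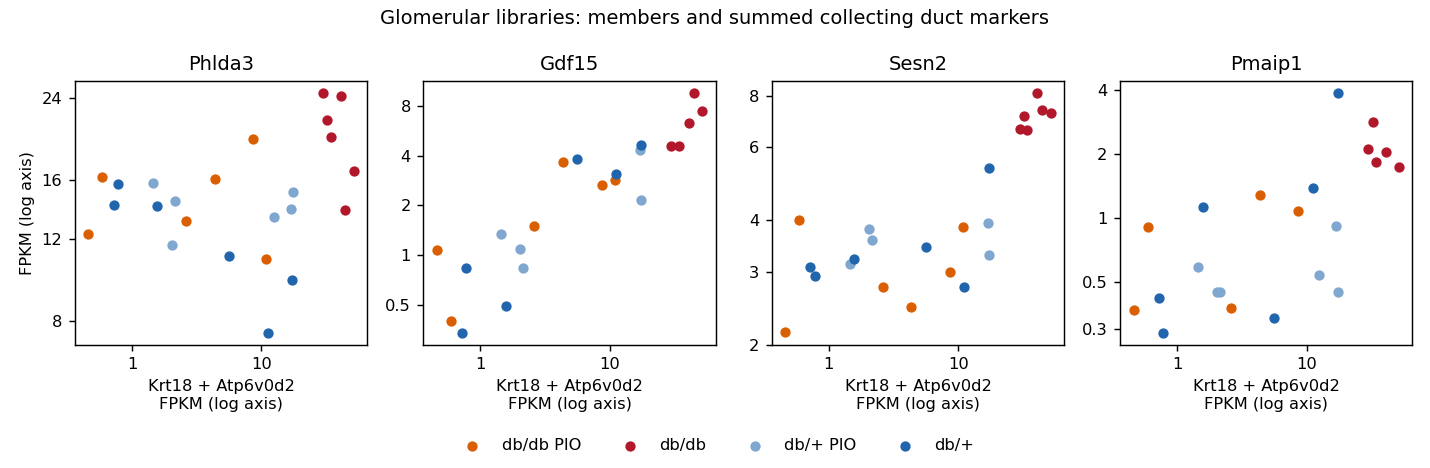
FPKM of Phlda3, Gdf15, Sesn2 and Pmaip1 (vertical log axes) against the summed FPKM of the collecting duct markers Krt18 and Atp6v0d2 (horizontal log axes) in glomerular libraries, coloured by group in the order db/db PIO, db/db, db/+ PIO and db/+. All 6 db/db libraries lie at sums of 29.8 to 51.9, to the right of the other 18, and low Gdf15 values stand at low sums, whereas Phlda3 at sums under 18 has its lowest value (7.56) at a sum of 11.17.

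In kidney cortex, Phlda3 rose with diabetes and fell with pioglitazone in db/db mice. It was listed at 4.10, 4.08, 5.04, 4.02 and 5.68 FPKM in the 5 db/db cortices with a value, against 1.32, 1.585 and 3.34 (lowest, median and highest) in db/+. All db/db values lay above all db/+ values, and the log2 difference was 1.01 ± 0.141, a 2.01-fold change (limma adjusted p = 4.28e-05). It was 1 of 5 tested genes, where 10.3% of all tested genes passed. In db/db PIO cortices Phlda3 had 0.96, 1.475 and 2.05 FPKM (lowest, median and highest), below every db/db value, and it fell by 1.16 on the log2 scale (SE 0.141, limma adjusted p = 1.21e-04). Again it was 1 of 5 tested genes, where 3.24% of all tested genes passed. The db/+ PIO cortices, at 1.35 to 2.14 FPKM, overlapped those of db/+. The interaction of genotype and pioglitazone was -1.17 ± 0.194 (limma adjusted p = 0.014), and Phlda3 was the only 1 of 3228 tested genes (0.031%) to pass it in cortex. With quantile normalization it did not pass (-1.26, limma adjusted p = 0.135) and no gene did, and with median-of-ratios rescaling 2 genes passed. Macrophage markers also moved in these libraries, with 3 of 3 tested lower in db/db than in db/+ and 3 of 6 lower in db/db PIO than in db/db, and Phlda3 rose in the first comparison and fell in the second. The part of macrophage RNA in the Phlda3 result was not tested. The summed FPKM of Cldn4 and Krt18, 2 of the 11 distal nephron and collecting duct markers, was 15.01 to 17.8 in db/db PIO, 10.98 to 27.63 in db/db, 7.59 to 14.72 in db/+ PIO and 8.85 to 20.37 in db/+. These groups overlapped, except that db/db PIO lay above db/+ PIO.

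The Sesn2 values under pioglitazone ran higher in cortex, where they had run lower in glomeruli. Sesn2 was listed at 33.29, 24.36, 22.22, 23.06 and 27.29 FPKM in db/db PIO cortices, against 14.93, 18.93, 21.73 and 8.28 FPKM in db/db. The groups did not overlap, but the log2 difference of 0.73 ± 0.214 did not pass (limma adjusted p = 0.062). It was 0.90 without db/db replicate 5 (limma adjusted p = 0.041) and 0.47 without db/db replicate 6 (limma adjusted p = 0.111). Replicate 6 had an FPKM sum of 601310, against 184748 to 314578 in the other cortical libraries. It also held the lowest db/db sum of Cldn4 and Krt18 (10.98). Against the db/+ PIO cortices, listed at 14.08, 11.75, 10.55 and 10.74 FPKM, it was higher in db/db PIO by 1.07 ± 0.214 (limma adjusted p = 0.001). That was 1 of 5 tested genes, where 19.7% of all tested genes passed. The collecting duct markers Atp6v0d2 (0.79) and Cldn4 (0.70) were also higher in that comparison by limma, and their part in the Sesn2 result was not tested. In the untreated comparison Sesn2 did not pass in cortex (log2 difference 0.17 ± 0.206, limma adjusted p = 0.712).

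The remaining members that could be tested in cortex, Gdf15, Pmaip1 and Cdkn1a, did not pass there. Mdm2, Ccng1, Bax, Trp53inp1 and Eda2r were not tested within cortex. Gdf15 was at 3.01 ± 0.606 FPKM in db/db PIO (n = 6), 5.27 ± 1.62 in db/db (n = 5) and 4.57 ± 1.77 in db/+ (n = 6), with a log2 difference of -0.62 ± 0.21 between db/db PIO and db/db (limma adjusted p = 0.101). Pmaip1 was at 8.10 ± 1.56 FPKM in db/db PIO and 8.49 ± 2.72 in db/db (n = 5 each), against 6.57 ± 1.45 in db/+ (n = 6). Its diabetes difference of 0.30 ± 0.172 (limma adjusted p = 0.335) passed without db/db replicate 6 (0.48, limma adjusted p = 0.020), the library with Pmaip1 at 4.52 FPKM, and with array weights (0.42, limma adjusted p = 0.031). Replicate 6 is the library with the FPKM sum of 601310. Cdkn1a ran from 4.71 to 9.40 FPKM in db/db PIO, from 8.64 to 12.43 in db/db, from 2.73 to 4.90 in db/+ PIO and from 3.87 to 15.14 in db/+.

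In SCN, Gdf15 rose with pioglitazone in diabetic mice. It reached the filter of 1 FPKM in 5 libraries through its 6 db/db PIO libraries alone, so that its SCN tests began from the group where it was high. With no filter on low values its SCN calls held. Gdf15 was at 1.03, 2.365 and 4.43 FPKM (lowest, median and highest) in db/db PIO nerves, against 0.20, 0.615 and 0.93 in db/db nerves. The groups did not overlap, and the log2 difference was 1.03 ± 0.186 (limma adjusted p = 0.002). Since a pseudocount of 1 was added, this 2.04-fold value understates the change of so low a gene, whose means were 2.44 ± 1.29 and 0.607 ± 0.259 FPKM (SD, n = 6 each). The 5 db/+ PIO nerves with a value ran from 0.13 to 0.48 FPKM and the 5 db/+ nerves from 0.15 to 0.40, and their difference did not pass (0.01 ± 0.203, limma adjusted p = 0.990). The interaction of genotype and pioglitazone was 1.02 ± 0.275 (limma adjusted p = 0.033), 1 of 2 genes tested, where 6.23% of all tested genes passed. The call did not hold without single libraries, since leaving out db/+ replicate 4, db/+ PIO replicate 1, 3 or 6, db/db replicate 2 or 3, or db/db PIO replicate 3 gave limma adjusted p between 0.054 and 0.061. It also ended with a pseudocount of 0.1 (0.055), with quantile normalization (0.163) and with the replicate number as a block (0.057). Gdf15 was 1 of 2 tested genes for pioglitazone in db/db nerves, and 10.1% of all tested genes passed.

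The comparison of db/db PIO with db/+ PIO nerves called Gdf15, Ccng1 and Sesn2, all higher in db/db PIO, where 33.8% of all tested genes passed. They were the 3 genes that could be tested, Gdf15 through its db/db PIO values alone. Gdf15 differed by 1.36 ± 0.195 on the log2 scale (limma adjusted p = 2.22e-05). Ccng1, cyclin G1, which recruits a phosphatase to the Mdm2 pathway, was listed at 26.85, 29.52, 36.92, 31.90 and 29.91 FPKM in db/db PIO, against 19.50, 20.05, 24.46 and 19.48 FPKM in db/+ PIO. The groups did not overlap (log2 difference 0.55 ± 0.0938, limma adjusted p = 8.09e-04). The 2 db/db nerves with a Ccng1 value had 24.24 and 23.89 FPKM, and the 2 db/+ nerves 22.51 and 21.70 FPKM. Sesn2 was at 2.74, 3.875 and 4.41 FPKM (lowest, median and highest) in db/db PIO, against 0.95, 2.025 and 4.15 in db/+ PIO, with overlap (0.63 ± 0.185, limma adjusted p = 0.011).

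Without the drug, neither Gdf15 (0.34 ± 0.195, limma adjusted p = 0.247) nor Sesn2 (0.40 ± 0.185, limma adjusted p = 0.153) passed between db/db and db/+ nerves by limma. Sesn2 had an unadjusted p under 0.05, and 14.9% of all tested genes passed. Pmaip1 stayed under 1 FPKM in all SCN libraries with a value but 1 (db/db replicate 4, 1.37), so that it entered no test within SCN. It did enter the fit of all tissues, where a gene could reach the filter in any tissue. It ran from 0.41 to 0.86 FPKM in db/db PIO, from 0.12 to 1.37 in db/db, from 0.05 to 0.16 in db/+ PIO and from 0.08 to 0.24 in db/+. All 6 db/db PIO values lay above all db/+ PIO values, and with no filter on low values this difference was 0.53 ± 0.12 (limma adjusted p = 0.003).

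Fat cell genes moved in the same nerves. All 3 of the 8 adipocyte markers that could be tested were higher in db/db PIO than in db/db SCN by limma (10.1% of all tested genes passed). Among them was the brown fat gene Cidea (4.89 to 29.48 FPKM in db/db PIO and 0.15 to 0.91 in db/db). Cidea ran from 0.69 to 23.69 FPKM in db/+ PIO nerves as well, against 0.16 to 1.82 in db/+, whereas Gdf15 stayed at 0.13 to 0.48 in db/+ PIO. The part of adipocyte RNA in the Gdf15 result was not tested. Of 6 proliferation genes tested in SCN, all 6 were higher in db/db PIO than in db/+ PIO (33.8% of all tested genes passed) and 3 were higher in db/db than in db/+ (14.9%) by limma, among them the mitotic gene Mki67 (log2 differences 1.00 and 0.52).

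In DRG none of the genes passed any comparison by limma, at 3 tested genes for diabetes, 3 for pioglitazone in db/db, 3 for pioglitazone in db/+, 4 for diabetes under pioglitazone and 3 for the interaction, and none had an unadjusted p under 0.05. The shares of all tested genes that passed were 4.13%, 0%, 0%, 8.64% and 0% in that order. Phlda3 was at 26.7 ± 2.15 FPKM in db/db PIO (n = 6), 30.1 ± 1.62 in db/db (n = 4), 28.6 ± 8.86 in db/+ PIO (n = 4) and 25.4 ± 2.85 in db/+ (n = 5). Its diabetes difference was 0.24 ± 0.129 (limma adjusted p = 0.295). Sesn2 stayed between 0.88 and 2.65 FPKM in all 23 DRG libraries, and Pmaip1 between 0.96 and 1.96 FPKM in the 19 with a value. Gdf15 stayed at or below 0.50 FPKM in DRG and did not reach the filter of 1 FPKM in 5 libraries. Bax, the pore-forming effector of apoptosis, had values in 4 of 5 db/db ganglia (27.49, 36.05, 39.30 and 32.02 FPKM) and in 2 of 6 in each other group. A db/db ganglion library, replicate 3, stood apart through skeletal muscle genes, with Acta1 at 109.24 FPKM in it, and leaving it out gave no member a call in DRG.

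Pioglitazone changed none of the genes in db/+ mice by limma in any tissue. The tests numbered 4 in SCN (0.0778% of all tested genes passed), 3 in DRG (0%), 4 in glomeruli (0%) and 5 in cortex (0.025%). The only unadjusted p under 0.05 among them was that of Cdkn1a in cortex (log2 difference -0.86 ± 0.281, limma adjusted p = 1.000).

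**Figure D4:**
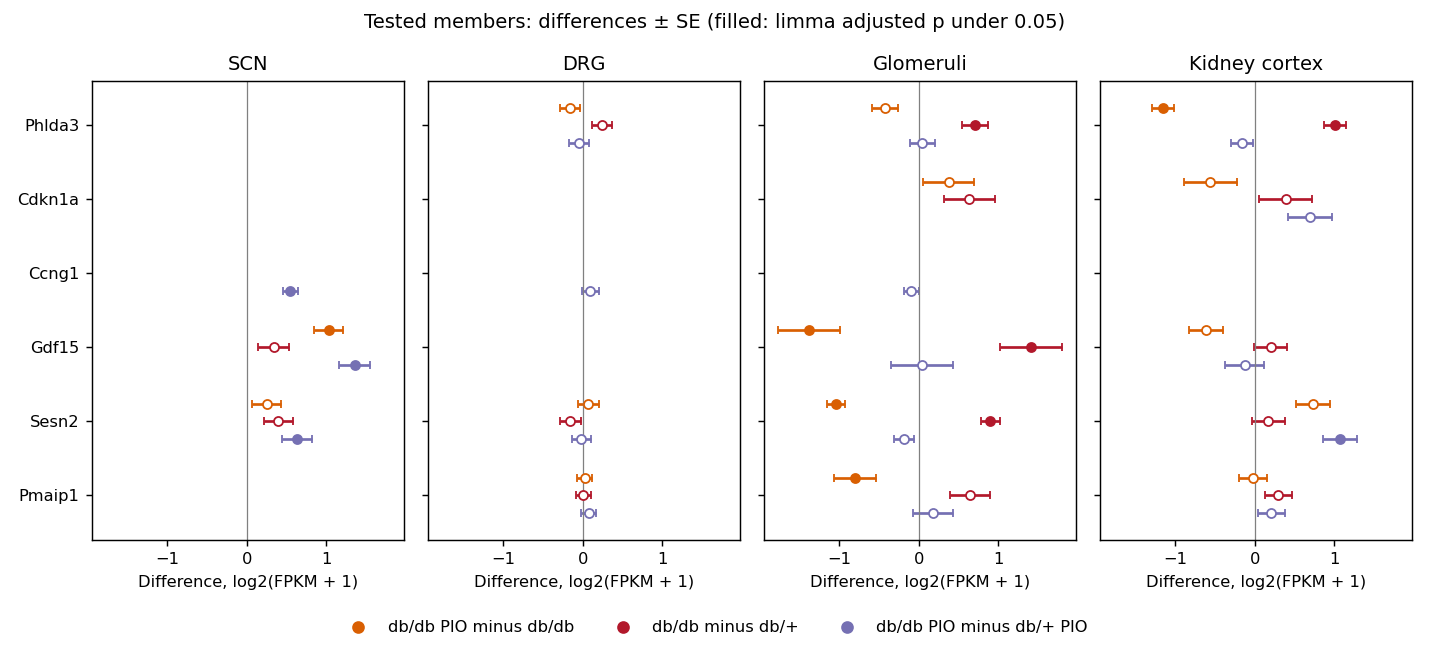
Differences on the log2(FPKM + 1) scale (horizontal axes) with standard errors for the members that could be tested (down the page) in the 4 tissues, for db/db PIO minus db/db in orange, db/db minus db/+ in red and db/db PIO minus db/+ PIO in purple. Filled points passed a limma adjusted p of 0.05. In glomeruli the red points lie to the right of 0 and the orange points to the left for Phlda3, Gdf15, Sesn2 and Pmaip1, and in SCN the orange point of Gdf15 lies to the right.

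The tissues were set against each other in one limma fit of all 95 libraries. Pioglitazone acted differently on these genes in glomeruli than in SCN for all 3 that could be tested, where 23.9% of all tested genes passed. The difference of the 2 responses was -2.41 ± 0.355 for Gdf15 (limma adjusted p = 2.45e-07), -1.29 ± 0.226 for Sesn2 (limma adjusted p = 6.76e-06) and -0.99 ± 0.251 for Pmaip1 (limma adjusted p = 0.002). The Pmaip1 call rests on SCN values that were under 1 FPKM in all libraries with a value but 1. It ended with quantile normalization (-0.57, limma adjusted p = 0.186). Between glomeruli and cortex, 3 of 5 pioglitazone responses differed, where 13.1% of all tested genes passed. Sesn2 (-1.78 ± 0.245, limma adjusted p = 1.41e-07) and Pmaip1 (-0.79 ± 0.263, limma adjusted p = 0.033) responded with a lower value in glomeruli, and Phlda3 fell less there than in cortex (0.73 ± 0.204, limma adjusted p = 0.009). The Pmaip1 difference did not hold without glomerular db/db replicate 1, db/db PIO replicate 4 or 5, cortical db/db replicate 6 or db/db PIO replicate 2 or 5 (limma adjusted p between 0.060 and 0.111). It also ended with the compared groups alone (limma adjusted p = 0.099) and with quantile normalization (0.658). Cortical db/db replicate 6 is the library with the FPKM sum of 601310.

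For diabetes, 2 of 5 responses differed between glomeruli and cortex, Gdf15 by 1.22 ± 0.363 (limma adjusted p = 0.013) and Sesn2 by 0.73 ± 0.24 (limma adjusted p = 0.025), both larger in glomeruli, where 15.8% of all tested genes passed. The Gdf15 difference was lost with the compared groups alone (limma adjusted p = 0.136) and with quantile normalization (0.169). The Sesn2 difference was lost without cortical db/+ replicate 5 (limma adjusted p = 0.059) or without db/db replicate 6 (limma adjusted p = 0.155), the library with the FPKM sum of 601310. It was also lost with median-of-ratios rescaling (0.054), array weights (0.053), the compared groups alone (0.095) or quantile normalization (0.400). The Phlda3 response, raised in both, was not shown to differ (-0.30 ± 0.204, limma adjusted p = 0.355). Between glomeruli and SCN, 1 of 3 differed, Gdf15 by 1.07 ± 0.363 (limma adjusted p = 0.026), where 19.4% of all tested genes passed, and the call ended without glomerular db/+ replicate 1, 3 or 4 or db/db replicate 5 (limma adjusted p between 0.056 and 0.079), with a pseudocount of 0.1 (0.223), with the compared groups alone (0.102) and with quantile normalization (0.181). Leaving out glomerular db/+ replicate 2 raised the calls for the diabetes response over the 3 pairs of tissues to 6, against 3 with all libraries. Between SCN and DRG none of the 3 tested genes differed by limma for diabetes (7.07% of all tested genes passed) or for pioglitazone (3.39%), with 1 unadjusted p under 0.05 in each.

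Other genes of the pathway were followed by lists. Of 29 other p53 targets, 10 could be tested for diabetes in glomeruli and 3 were higher in db/db by limma, with a list median of 0.14 against 0.04 for all genes and 25.4% of all tested genes passing. Such a count is near that share. They were the cell cycle arrest gene Rprm (1.18 ± 0.17, limma adjusted p = 6.08e-05), Perp (0.90 ± 0.21, limma adjusted p = 0.004), a desmosome and apoptosis effector, and Sfn (0.75 ± 0.141, limma adjusted p = 5.39e-04), the epithelial 14-3-3 sigma. Rprm was at 0.98 to 3.42 FPKM in db/db glomeruli and 0.04 to 0.46 in db/+, and it reached the filter on low values through db/db alone. With pioglitazone in db/db glomeruli 4 of 12 passed, all lower, namely Rprm, Perp, Sfn and Zmat3 (log2 differences -1.05, -0.60, -0.59 and -0.27), with a list median of -0.19 against -0.04 and 23.1% of all tested genes passing. Perp and Sfn are epithelial genes, and the tubule markers moved in the same libraries, as given above.

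Outside glomeruli, up to 4 of the other targets passed in a comparison. In cortex none of 12 tested passed for diabetes by limma (10.3% of all tested genes passed). With pioglitazone in db/db 2 of 13 were lower (3.24% of all tested genes passed), Plk2 (-0.72) and Dram1 (-0.61). In SCN none of 12 passed for diabetes, 1 rose with pioglitazone in db/db, and 4 were higher in db/db PIO than in db/+ PIO, among them Btg2 (0.84), an antiproliferative gene, and Perp (1.13). The shares of all tested genes that passed were 14.9%, 10.1% and 33.8% in that order. In DRG 1 was higher and 1 lower for diabetes, of 12 tested, where 4.13% of all tested genes passed. Of 14 p53 regulators only 1 to 3 per tissue could be tested for diabetes. Trp53 itself had too few values to be tested, and the 1 call was Cdkn2a, which encodes the Mdm2 inhibitor Arf and the CDK inhibitor p16. It was lower in db/db SCN (7.42 ± 1.89 FPKM) than in db/+ SCN (18.9 ± 3.91 FPKM, SD, n = 6 each), by -1.26 ± 0.177 (limma adjusted p = 5.02e-05).

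Some genes of a list of ATF4 targets passed in the same comparisons as Gdf15 and Sesn2. In glomeruli 2 of 7 tested genes were higher in db/db by limma, Ddit4 (1.48 ± 0.333) and Mthfd2 (0.58 ± 0.151), and 2 of 7 were lower in db/db PIO than in db/db, Mthfd2 (-0.64) and Psat1 (-0.46), counts near the 25.4% and 23.1% of all tested genes. Ddit4 was also higher in db/db PIO than in db/+ PIO glomeruli (1.79 ± 0.333, limma adjusted p = 0.002), where Gdf15 and Sesn2 did not pass. In SCN 2 of 7 rose with pioglitazone in db/db (10.1% of all tested genes passed), the asparagine synthetase Asns (1.11 ± 0.232) and Mthfd2 (0.55 ± 0.162). There 4 of 7 were higher in db/db PIO than in db/+ PIO (33.8% of all tested genes passed), led by Ddit4 (1.84 ± 0.349), an inhibitor of mTORC1 like Sesn2. The 1 call for diabetes in SCN was Trib3 (0.47 ± 0.116), where 14.9% of all tested genes passed. In cortex none of 6 passed for diabetes or for pioglitazone in db/db by limma, where 10.3% and 3.24% of all tested genes passed. Between db/db PIO and db/+ PIO cortices, where Sesn2 was higher, 5 were tested. Phgdh was higher (0.80) and Asns (-0.72) and Mthfd2 (-0.39) were lower, where 19.7% of all tested genes passed. Of the 15 genes of the BCL2 family and caspase activation, the partners of Bax and Pmaip1, none passed for diabetes in any tissue by limma. The share of all tested genes that passed ran from 4.13% in DRG to 25.4% in glomeruli. Cycs, cytochrome c, was higher in db/db PIO than in db/db SCN (1.31 ± 0.232) and lower in db/db PIO than in db/db glomeruli (-0.53 ± 0.173). In these comparisons 10.1% and 23.1% of all tested genes passed. Fat cell genes moved in the same nerves, as given above, and their part in the Cycs result was not tested. Between db/db PIO and db/+ PIO nerves, 4 of 7 tested genes of this list were higher by limma, where 33.8% of all tested genes passed, among them Mcl1 (0.56 ± 0.098), the survival factor that Pmaip1 binds, and the BH3-only genes Hrk (0.63 ± 0.12) and Bmf (0.43 ± 0.137).

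The 3 genes with the most similar pattern were listed for each member with enough values, by Pearson's r over the group means of log2(FPKM + 1) after subtracting each tissue's mean. For Sesn2 they were Elovl6 (r = 0.983, 13 groups), Tspan33 (0.955, 12 groups) and Adh1 (0.951, 12 groups). For Gdf15 they were Slc25a5 (0.959, 13 groups), Adh1 (0.954, 12 groups) and Ppif (0.925, 13 groups), and for Pmaip1 Pgam2 (0.948, 16 groups), Tspan33 (0.941, 12 groups) and Kit (0.930, 15 groups). For Phlda3 they were LOC100502709 (0.911, 13 groups), 1500011H22Rik (0.901, 12 groups) and Vmac (0.889, 13 groups). These are the highest of 1933 to 2437 candidate genes, the groups share their libraries, and they are given as a description. Cdkn1a, Mdm2, Ccng1, Bax, Trp53inp1 and Eda2r had values in too few groups.

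Eda2r, the receptor for an isoform of ectodysplasin A, stayed below 1 FPKM in every library. Its values ran from 0.24 to 0.68 FPKM in 9 SCN libraries, 0.05 to 0.16 in 6 DRG, 0.23 to 0.60 in 12 glomerular and 0.10 to 0.70 in 14 cortical libraries, and it passed no test with no filter on low values. Mdm2, the ubiquitin ligase that p53 induces and that degrades p53, ran from 9.13 to 22.18 FPKM in its 14 libraries, 13 of them from db/+ or db/+ PIO mice and 1 from a db/db ganglion (10.18). Since a 0 was taken as missing, this split does not show whether the level differed. Trp53inp1, a nuclear protein of autophagy and apoptosis, ran from 3.31 to 10.14 FPKM in 15 nerve and ganglion libraries. Bax ran from 23.50 to 68.49 FPKM in 17 libraries, and Ccng1 from 19.48 to 48.59 FPKM in 35.

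Positions in mm9 (GENCODE vM1) of the 4 genes with the most calls are chr1:137662696-137665713 on the plus strand for Phlda3, chr8:73153292-73156355 on the minus strand for Gdf15, chr4:132047947-132066416 on the minus strand for Sesn2 and chr18:66618258-66625204 on the plus strand for Pmaip1, all annotated as protein-coding. FPKM values cover the whole gene and not single exons.

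Taking each 0 as a value rather than as missing ended 22 of the 25 calls of these genes within tissues and between responses, the exceptions being 3 calls of Gdf15, 2 in SCN (pioglitazone in db/db and diabetes under pioglitazone) and the glomerulus to SCN difference in the pioglitazone response. Some calls ended with the gene's own difference unchanged. Phlda3 had no 0 in glomeruli, and Sesn2 none in glomerular db/db PIO, db/db or db/+. Their diabetes differences there stayed at 0.70 and 0.90, but the SE rose from 0.159 to 0.2399 and from 0.119 to 0.3178. Over all genes, 127 of 7041 tested then passed for diabetes in glomeruli, against 1069 of 4210 otherwise. Why such calls ended was not tested.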

How the data were processed

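RNA-Seq was done on poly(A) RNA with paired-end TruSeq libraries on an Illumina HiSeq. The authors aligned reads with TopHat and Bowtie to mouse NCBI37/mm9 and deposited FPKM values estimated by Cufflinks, 1 file per library with 25407 genes at 2 decimals, with program versions not given in the sources used here. Groups were compared by the authors with Cuffdiff, which needs aligned reads, so that limma (3.58.1, R 4.3.3) on log2(FPKM + 1) was used in its place. A 0 was taken as missing. Genes with at least 1 FPKM in at least 5 libraries of a tissue and at least 3 values in each compared group were tested, with the 4 groups of a tissue in 1 fit or all 16 groups for comparisons between tissues, moderated variances with an intensity trend, 2-sided tests, Benjamini-Hochberg adjustment over all genes tested and a threshold of 0.05. Fold changes on the log2(FPKM + 1) scale understate those of low genes. The depth behind a value is unknown, and no interval from counts is given. The study took libraries from 6 mice per group, but the labels do not tie libraries of different tissues to a mouse, and the fit across tissues treated them as independent. The code was tested on simulated data with known changes. The members and gene lists were chosen with earlier results of these data known. All 10 members were described whatever their values, and of other lists at most the 4 genes with the largest change among those past the threshold. Genome positions come from GENCODE vM1 (mm9), and promoters from RefSeq (GRCm38.p6). Some marker genes of tissue identity are not reported here.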

Additional observations from a re-analysis of the deposited data

Results flagged for a closer look

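Of 73 sets of values of 1 gene in 1 group, 8 held a library far from the rest by Dixon's criterion, which chance gives in about 1 in 20 such sets. Of these, 2 were in glomerular db/+ replicate 2, Sesn2 at 5.34 FPKM and Pmaip1 at 3.88. In its group this library had the highest sum of collecting duct markers (17.37), and also the highest Slc22a6 (21.49) and C1qa (74.28). The others were Phlda3 in cortical db/+ replicate 1 (3.34), Ccng1 in SCN db/+ PIO replicate 4 (24.46), and Pmaip1 in SCN db/db replicate 4 (1.37), DRG db/+ PIO replicate 6 (1.68), glomerular db/+ PIO replicate 1 (0.92) and cortical db/+ PIO replicate 5 (8.08).

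The response to pioglitazone differed between genotypes for Gdf15 in SCN (1.02 on the log2 scale, db/db minus db/+), Sesn2 in glomeruli (-1.09) and Phlda3 in cortex (-1.17). The response to diabetes differed for glomeruli minus cortex in Gdf15 (1.22) and Sesn2 (0.73) and for glomeruli minus SCN in Gdf15 (1.07). The response to pioglitazone in db/db differed for glomeruli minus cortex in Phlda3 (0.73), Pmaip1 (-0.79) and Sesn2 (-1.78) and for glomeruli minus SCN in Gdf15 (-2.41), Pmaip1 (-0.99) and Sesn2 (-1.29). Several of these calls did not hold. Leaving out single libraries ended those of Gdf15 between genotypes in SCN and of Pmaip1 for pioglitazone in glomeruli minus cortex. It also ended the diabetes calls of Sesn2 in glomeruli minus cortex and of Gdf15 in glomeruli minus SCN. With each 0 entered as a value, all ended but that of Gdf15 for pioglitazone in glomeruli minus SCN.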

How the results depend on the processing

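Entering each 0 as a value had the largest effect. The calls among members then numbered 0 for diabetes (4 otherwise), 1 for pioglitazone in db/db (5), 1 for diabetes under pioglitazone (4), 0 for the interaction (3), 12 between tissues (21), 1 for tissue differences in the diabetes response (3) and 1 in the pioglitazone response (6). Quantile normalization gave 3 for pioglitazone in db/db, 1 for the interaction and 1 for the diabetes response between tissues. It moved the median of all genes for diabetes in SCN to 0.51, from 0.02, and the share of higher genes among the calls to 97.8%, from 51.2%, and Gdf15 and Sesn2 passed there only under it (limma adjusted p = 0.015 and 5.35e-04). Array weights gave 7 for diabetes, at least 5 values per group gave 2 for diabetes under pioglitazone, since Ccng1 in SCN and Sesn2 in cortex, with 4 values in a group, were no longer tested (21 of 21 calls that could be tested were kept), and fitting the compared groups alone gave 0 for the diabetes response between tissues. Leaving out 1 library at a time gave 4 to 5 calls for diabetes, 4 to 6 for pioglitazone in db/db, 0 to 0 for pioglitazone in db/+, 4 to 5 for diabetes under pioglitazone, 2 to 5 for the interaction, 18 to 22 between tissues, 2 to 6 for the diabetes response and 5 to 7 for the pioglitazone response. No call of a member changed sign. With the replicate number as a block, 24 of 25 calls were kept, Gdf15 in the SCN interaction being lost, Phlda3 with pioglitazone in glomeruli passed (limma adjusted p = 0.032), and pioglitazone in db/db had 6 calls. The numbers were not taken to pair the samples, since in no tissue was every same-numbered pair correlated over 0.1 (20 of 36 pairs in glomeruli). A weak or partial pairing could also fail this rule, so that it does not settle whether the numbers pair the glomerular libraries. The median correlation of same-numbered deviations was 0.12 in glomeruli (-0.0137 for other numbers), -0.00715 in cortex, -0.000687 in SCN and 0.0601 in DRG. The cause of the other changes was not tested.

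Differences that did not pass turned round as follows. With each 0 as a value, they were 0.83 for Phlda3 and -0.19 for Pmaip1 with pioglitazone in DRG db/db, -1.17 for Cdkn1a with pioglitazone in glomeruli, 0.20 for Cdkn1a with pioglitazone in cortex, and -0.31 for Cdkn1a, -0.24 for Gdf15, -0.24 for Pmaip1 and -1.17 for Sesn2 for diabetes in cortex. Pmaip1 for diabetes in DRG was -0.0018 with a pseudocount of 0.1, -0.0083 with median-of-ratios rescaling, -0.10 with quantile normalization and -0.015 with the replicate block, and -0.0749 to 0.0738 without 1 library. Pmaip1 for pioglitazone was -0.017 in DRG with array weights, -0.0444 to 0.104 there without 1 library, 0.014 in cortex with median-of-ratios rescaling and -0.21 to 0.10 there without 1 library. Sesn2 for pioglitazone in SCN was -0.017 with quantile normalization.

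Phlda3 with pioglitazone in glomeruli passed without db/+ replicate 5, db/db replicate 2 or 5, or db/db PIO replicate 1 (limma adjusted p between 0.021 and 0.049), with array weights (0.037) and with at least 5 values per group (0.048). Depth per value is unknown, and 455 of 950 entries were missing, so that Mdm2, Bax, Trp53inp1 and Eda2r could be compared in few or no contrasts.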
